A study of Mus musculus with 32 samples.

Results

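The Klf genes encode Krüppel-like factors, transcription factors that bind GC-rich and CACC elements of promoters through zinc fingers at the carboxy terminus. They differ mainly in the amino-terminal part. Klf2, Klf4, Klf6 and Klf7 act largely as activators, Klf3 recruits the corepressor CtBP, and Klf9, Klf10, Klf11, Klf13 and Klf16 recruit the corepressor Sin3A. In blood cells they are known for roles in quiescence, differentiation and the early transcriptional response to cytokines and growth factors. The 10 genes named here were taken by their symbols, with earlier results of these data known. Each had 1 probe set among the 23410 probe sets with a gene symbol that were tested.

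The data are 32 Affymetrix mouse Gene ST arrays of RNA from Ba/F3 cells, a murine pro-B cell line that depends on IL-3, with 8 arrays for each of 4 lines. Ba/F3-gp130 is the line from which the others were made and carries transduced human gp130, so all lines share gp130. The labels give culture with Hyper-IL-6, a fusion of IL-6 with its soluble receptor, for every array, and the microarray methods describe it in the growth medium of Ba/F3-gp130 cells. Other parts of the methods describe transduced lines selected on GFP and mCherry fusion proteins after its removal and Hyper-IL-23 medium for the line with the natural receptor. Ba/F3-IL-12Rβ1-IL-23R carries both chains of the natural IL-23 receptor and is called the natural receptor line. Ba/F3-SyCyR(IL-23/2A), the heterodimer line, carries a synthetic receptor pair, in which a GFP nanobody replaces the outer part of IL-12Rβ1 and an mCherry nanobody that of IL-23R. The homomer line, Ba/F3-SyCyR(IL-23R), carries IL-23R fused to the GFP nanobody alone. Each receptor is represented by 1 selected line, so a difference between lines cannot be told apart from a difference between selected cells. The protocol describes 3 h without serum and 1 h with 100 ng/ml of GFP-mCherry, 3xGFP or a Hyper-IL-23 preparation, and the methods describe supernatant of untransfected CHO-K1 cells as the control. The labels give each array a number from 13 to 20 within its line and say nothing of its stimulation. Arrays were therefore compared by line and by odd or even number, with 4 arrays in each of the 8 groups. The sources used here do not give the treatment that an odd or an even number stands for. The study describes 4 independent biological replicates per stimulation state but does not describe the arrays of Ba/F3-gp130, where the p-values measure only the spread between arrays.

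Values are log2 RMA values, so a step of 1 is a doubling. The array medians lay between 6.94 and 7.18, and no array correlated below 0.991 with another of its line. Of the markers of pro-B cells, the 4 lines expressed Cd79a (9.17 to 10.77) and Cd79b (9.48 to 10.19), the signal chains of the B cell receptor, whereas 10 of 13 pro-B markers, Pax5 (6.35 to 6.76) and Vpreb1 (5.73 to 6.88) among them, had means below 7.04, the median of all probe set means. Cd79a differed between the lines. On even arrays it was higher than in Ba/F3-gp130 by 1.10 in the natural receptor line and by 0.83 in the heterodimer line. The STAT3 early target Socs3 was higher on odd arrays by 4.57 in the natural receptor line, 3.77 in the heterodimer line and 2.98 in the homomer line. Of 8 such early targets 7, 6 and 5 were called higher on odd arrays, against 0.859%, 0.470% and 0.137% of all probe sets. In Ba/F3-gp130 none of the 8 was called, against 0% of all. A difference was called where the Benjamini-Hochberg adjusted p of limma over all 23410 probe sets was below 0.05 and the size was at least 1.5-fold (0.58 on the log2 scale). RNA was taken from whole cultures, in which a change in fewer cells and a smaller change in all cells cannot be told apart.

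The promoters of 8 of the 10 genes were present in the RefSeq table of GRCm38.p6, and the windows of Klf6 and Klf9 are shown. Klf10 and Klf16 had no window there and were not searched. Klf6 is the activator that differed most between odd and even arrays, and Klf9 is the only one of the 8 with a match to the STAT motif. Each sequence covers the 250 bases before the annotated transcription start, with motif matches in capitals.
Klf6, chr13:5861239-5861488, plus strand: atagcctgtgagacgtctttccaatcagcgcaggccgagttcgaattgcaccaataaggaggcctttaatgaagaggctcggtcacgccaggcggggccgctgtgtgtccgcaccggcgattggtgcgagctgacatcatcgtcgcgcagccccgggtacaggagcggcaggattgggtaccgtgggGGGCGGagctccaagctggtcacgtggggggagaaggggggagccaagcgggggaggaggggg
Klf9, chr19:23140976-23141225, plus strand: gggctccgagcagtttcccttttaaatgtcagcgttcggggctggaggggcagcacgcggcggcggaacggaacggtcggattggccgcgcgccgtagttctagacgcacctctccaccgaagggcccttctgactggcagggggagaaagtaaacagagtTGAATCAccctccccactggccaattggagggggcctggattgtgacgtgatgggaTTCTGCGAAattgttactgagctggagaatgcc
The 5 motifs searched on both strands were the STAT site TTCNNNGAA, the cAMP response element TGACGTCA, the AP-1 site TGANTCA, the GC box GGGCGG and the CACC box CCACCC, and no matches of different motifs overlapped in these windows. In the Klf6 window the search found 1 GC box, 58 to 63 bases before the start, and none of the other 4 motifs. In the Klf9 window it found 1 STAT match, TTCTGCGAA, 25 to 33 bases before the start, and 1 AP-1 match, TGAATCA, 83 to 89 bases before it. A STAT match was present in 7.02% of the 32851 windows of the table, an AP-1 match in 6.75%, a GC box in 32.7% and a CACC box in 28.1%. The windows of Klf2, Klf3, Klf4, Klf7, Klf11 and Klf13 all held GC boxes, from 1 in Klf7 to 6 in Klf3, and none of the STAT, AP-1 or cAMP motifs. A match describes letters in the window and not the binding of a factor.

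Klf10, also known as TIEG1, is a repressor that is induced early by TGF-β and by other growth signals. It was the Klf gene with the widest range over the 32 arrays, from 9.13 to 10.32. In Ba/F3-gp130 the even arrays 14, 16, 18 and 20 read 9.72, 9.87, 9.49 and 9.66, and the odd arrays 13, 15, 17 and 19 read 9.86, 9.84, 9.54 and 9.63. The groups overlapped almost fully, and the difference of odd minus even was 0.03 ± 0.12 (SE, n = 4 and 4).

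In the natural receptor line the even arrays read 9.37, 9.49, 9.13 and 9.31 for Klf10 and the odd arrays 10.28, 10.25, 9.96 and 9.99, so every odd array lay above every even array. Klf10 was higher on odd arrays by 0.79 ± 0.12 (SE), a 1.74-fold difference with an adjusted p of 3.5e-05 in limma. In the heterodimer line the even arrays read 9.68, 9.60, 9.24 and 9.27 and the odd arrays 10.32, 10.12, 10.03 and 10.07. These groups did not overlap either, and Klf10 was higher on odd arrays by 0.69 ± 0.12, 1.61-fold, with an adjusted p of 6.6e-04 in limma. The homomer line gave even values of 9.26, 9.82, 9.16 and 9.40 and odd values of 9.87, 9.84, 9.63 and 9.70. Here array 16 lay inside the range of the odd arrays, and the difference of 0.35 ± 0.12 did not pass after adjustment in limma (unadjusted p = 0.0062, adjusted p = 1). With consecutive numbers as a fixed replicate block its adjusted p was 0.026, still under 1.5-fold. The odd and even values of Klf10 and Klf6 are plotted for each line.

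**Figure D1:**
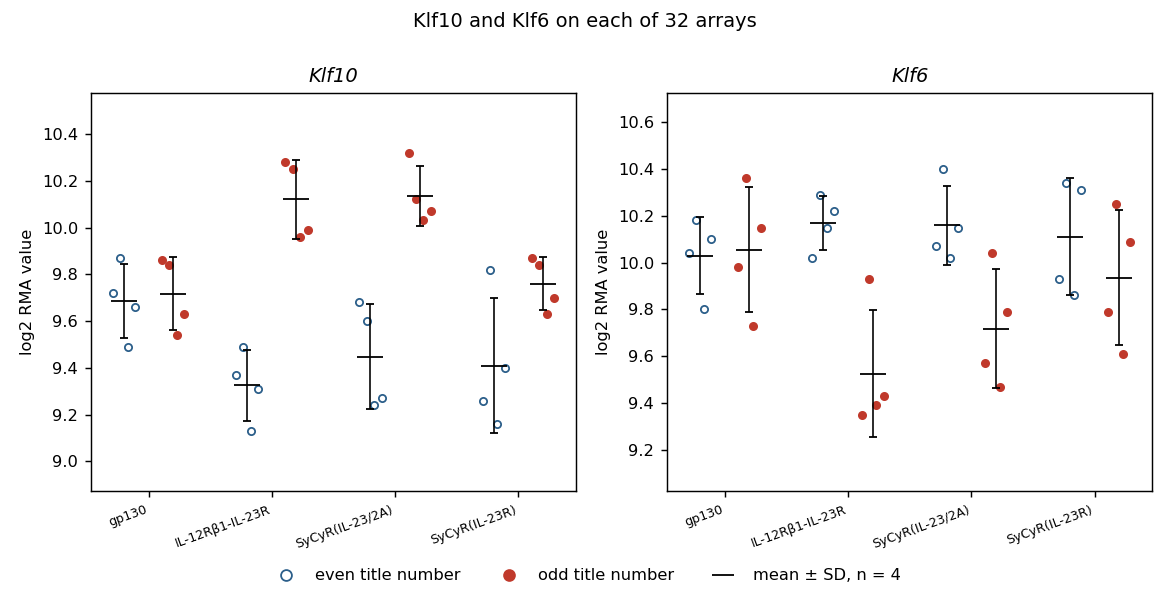
Log2 RMA values of Klf10 (left) and Klf6 (right) on each array of the 4 lines, with even title numbers as open and odd title numbers as filled circles; bars are the mean ± SD of 4 arrays. Klf10 on odd arrays of the natural receptor line (9.96 to 10.28) and the heterodimer line (10.03 to 10.32) lies above all even arrays of the same line, and Klf6 on odd arrays of the natural receptor line (9.35 to 9.93) lies below the even ones.

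The numbers carried a pattern of their own. Array 18 was the lowest even array for Klf10 in every line and array 17 the lowest odd one, so part of the spread within a group was common to the lines. Differences between consecutive numbers, which leave out such a shared level, were 0.92, 0.76, 0.83 and 0.68 in the natural receptor line and 0.64, 0.52, 0.79 and 0.80 in the heterodimer line. The homomer line gave 0.62, 0.02, 0.47 and 0.31, and Ba/F3-gp130 gave 0.14, -0.03, 0.05 and -0.02. All 4 values were thus above 0 in each of the 3 receptor lines, with the value of arrays 15 and 16 the lowest in the lines with synthetic receptors.

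**Figure D2:**
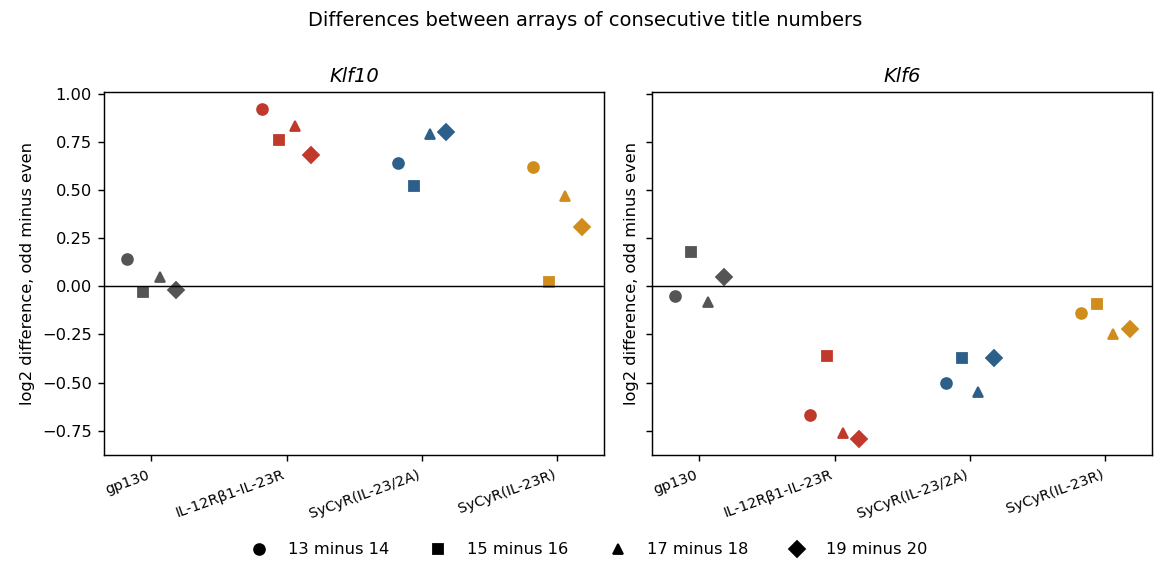
Log2 difference between each odd-numbered array and the even-numbered array that follows it, for Klf10 (left) and Klf6 (right) in the 4 lines, with 1 marker shape per pair of numbers. The 12 Klf10 differences of the receptor lines lie between 0.02 and 0.92 and the 12 Klf6 differences between -0.79 and -0.09, while those of Ba/F3-gp130 lie on both sides of 0 for both genes.

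The odd minus even difference of Klf10 was then compared between lines. It was larger in the natural receptor line than in Ba/F3-gp130 by 0.76 (95% confidence interval 0.41 to 1.11, adjusted p = 0.012 in limma). This call was lost when each array was centred on its own median, with a difference of 0.69 and an adjusted p of 0.085. For the heterodimer line against Ba/F3-gp130 the difference was 0.65 (0.31 to 1.00), with an adjusted p of 0.12 in limma without a block and 1.7e-04 with the title number as a replicate block. The value for the homomer line was 0.32 (-0.03 to 0.66) and did not pass with or without the block. Each of these comparisons uses the same Ba/F3-gp130 arrays. Between the receptor lines, the interval of the heterodimer line minus the natural receptor line ran from -0.45 to 0.24 around -0.11, and that of the homomer line minus the heterodimer line from -0.68 to 0.01 around -0.34. Neither difference was called, and the intervals hold sizes from 0 up to 0.45 and from 0 up to 0.68.

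Klf6 is a broadly expressed activator and an early response gene in many cell types. Its values in Ba/F3-gp130 were 10.04, 10.18, 9.80 and 10.10 on even arrays and 9.98, 10.36, 9.73 and 10.15 on odd arrays. These groups overlapped, with a difference of 0.02 ± 0.15. In the natural receptor line the even arrays read 10.02, 10.29, 10.15 and 10.22 and the odd arrays 9.35, 9.93, 9.39 and 9.43. All odd arrays lay below all even ones, and on odd arrays Klf6 fell by 0.64 on the log2 scale (SE 0.15, 1.56-fold, adjusted p = 0.01 in limma). This call was kept in 7 of the 8 fits that left out 1 array of the line. It was lost without array 13, where the fall was 0.58, just below the limit of 1.5-fold, with an adjusted p of 0.033 in limma.

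The synthetic receptor lines had smaller Klf6 differences. The heterodimer line read 10.07, 10.40, 10.02 and 10.15 on even and 9.57, 10.04, 9.47 and 9.79 on odd arrays, where array 15 lay within the even range. The difference of -0.44 ± 0.15 had an unadjusted p of 0.006 and an adjusted p of 0.32 in limma, or 2.4e-04 with consecutive numbers as a fixed replicate block, under 1.5-fold in both. The homomer line read 9.93, 10.34, 9.86 and 10.31 on even and 9.79, 10.25, 9.61 and 10.09 on odd arrays, with wide overlap and a difference of -0.18 ± 0.15. Array 15 was the highest odd and array 16 the highest even array for Klf6 in all 4 lines. Taken by consecutive numbers, Klf6 was lower on the odd array in each of the 12 pairs of the receptor lines, by -0.67, -0.36, -0.76 and -0.79 in the natural receptor line, by -0.50, -0.37, -0.55 and -0.37 in the heterodimer line and by -0.14, -0.09, -0.25 and -0.22 in the homomer line. In Ba/F3-gp130 the pairs gave -0.05, 0.18, -0.08 and 0.05.

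Against Ba/F3-gp130 the odd minus even difference of Klf6 was lower by -0.66 (-1.10 to -0.23) in the natural receptor line, by -0.47 (-0.90 to -0.03) in the heterodimer line and by -0.20 (-0.63 to 0.24) in the homomer line. Without a block none of the 3 passed in limma (adjusted p = 0.17, 1 and 1). With the title number as a replicate block the first had an adjusted p of 5.0e-05 and was called, and that of the heterodimer line had 0.0093 and stayed under 1.5-fold. The receptor lines did not differ from each other in a called way: the heterodimer differed from the natural receptor by 0.20 (-0.24 to 0.63) and the homomer from the heterodimer by 0.27 (-0.16 to 0.70).

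Over the 10 genes, 2 were called between odd and even arrays of the natural receptor line, against 0.991% of all probe sets, with Klf10 higher (0.859% of all were called higher) and Klf6 lower (0.132% were called lower). In the heterodimer line 1 was called, Klf10, against 0.487% of all and 0.470% higher. In the homomer line 0 were called, against 0.137%, with 2 members at an unadjusted p under 0.05 (Klf9 and Klf10), against 3.53%. In Ba/F3-gp130 none was called, against 0% of all, and 0 had an unadjusted p under 0.05, against 1.11%. Groups without overlap were found for Klf10 and Klf6 in the natural receptor line, where 4.71% of all probe sets lay higher and 3.27% lower without overlap, and for Klf10 in the heterodimer line, where 3.09% lay higher. For the difference from Ba/F3-gp130, 1 member (Klf10) was called in the natural receptor line, against 0.889% of all called and 0.765% called higher. In the heterodimer line 0 were called, against 0.320%, and 2 (Klf6 and Klf10) had an unadjusted p under 0.05, against 3.97%. In the homomer line 0 were called, against 0.0940%, and 0 had an unadjusted p under 0.05, against 2.49%. Between heterodimer and natural receptor 0 were called, against 0.103%, and between homomer and heterodimer 0, against 0.0769%, with 0 members at an unadjusted p under 0.05 in both, against 2.97% and 2.47%. The median difference of the 10 genes between odd and even arrays was 0.01, 0.02, 0.05 and 0.01 in the 4 lines, beside a median within 0.01 of 0 for all probe sets tested. The 10 genes were chosen with earlier results of these data known, so these counts are not independent evidence about the family. Of the 7 other Klf genes on the array, none was called in these comparisons.

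**Figure D3:**
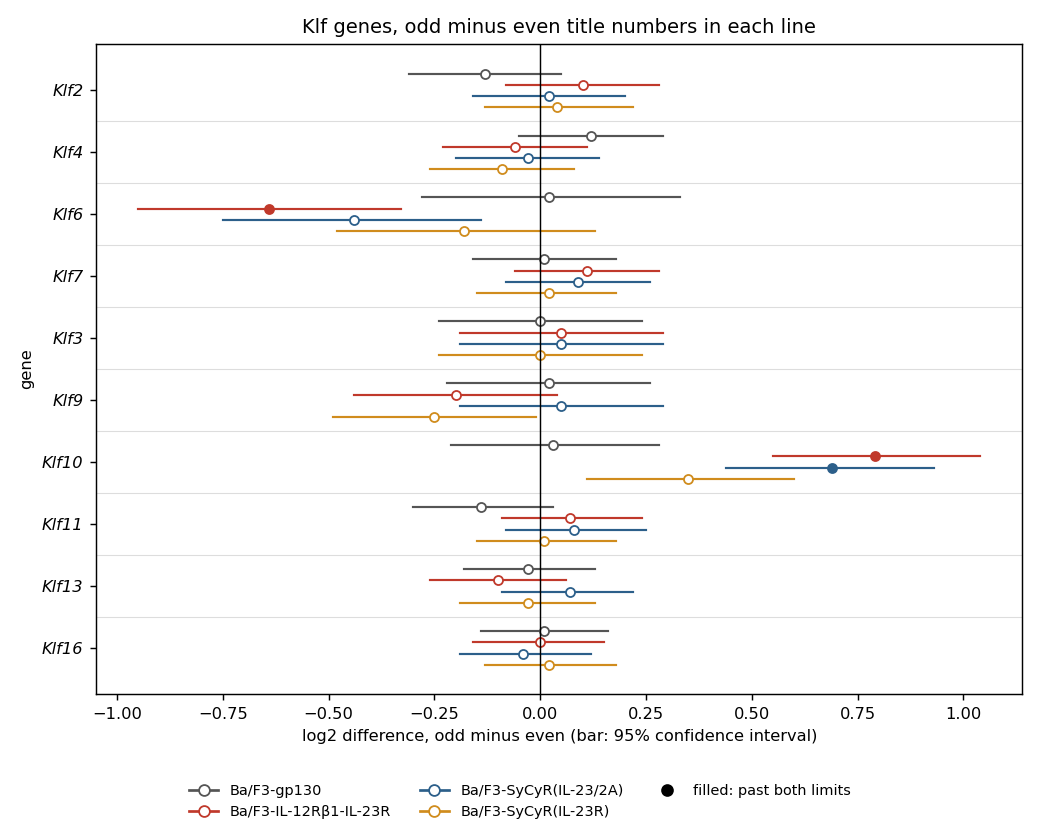
Log2 difference of odd minus even title numbers for the 10 Klf genes in each of the 4 lines, from limma, with 95% confidence intervals as bars and filled points where the adjusted p was below 0.05 and the size at least 1.5-fold. The filled points are Klf10 in the natural receptor line (0.79) and the heterodimer line (0.69) and Klf6 in the natural receptor line (-0.64), and all other genes lie between -0.25 and 0.12.

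Among the other activators, Klf2 maintains quiescence and trafficking in lymphocytes. Its 32 values lay between 7.55 and 8.00, and its differences between odd and even arrays were -0.13 in Ba/F3-gp130, 0.10 in the natural receptor line, 0.02 in the heterodimer line and 0.04 in the homomer line, each with an SE of 0.09. None was larger than the spread between arrays. Klf4, known from pluripotency and from myeloid cells, read 6.19 to 6.76 and lay below 7.04 on all 32 arrays, so it was not shown to be above background and its differences of -0.09 to 0.12 cannot be read as changes in expression. Klf7, a factor of progenitor cells and neurons, read 10.22 to 11.11, and its odd minus even differences ran from 0.01 to 0.11 (SE 0.08).

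The CtBP-binding Klf3, which restrains other Klf factors in B cells and erythroid cells, read 6.82 to 7.69, with 22 of 32 arrays above 7.04. Its odd minus even differences were 0.00, 0.05, 0.05 and 0.00 (SE 0.12). Of the Sin3A-binding genes other than Klf10, Klf9 is a target of glucocorticoid and thyroid hormone receptors. Klf9 read 8.94, 8.85, 8.74 and 9.19 on even and 8.74, 8.67, 8.75 and 8.76 on odd arrays of the natural receptor line, a difference of -0.20 ± 0.12 with overlap. In the homomer line it read 8.82, 9.30, 8.96 and 9.49 on even and 8.77, 9.04, 8.69 and 9.09 on odd arrays, lower on the odd array of each consecutive pair by -0.05, -0.26, -0.27 and -0.40. That difference of -0.25 ± 0.12 had an adjusted p of 1 in limma. It was 0.02 in Ba/F3-gp130 and 0.05 in the heterodimer line. Klf11, a close relative of Klf10 with a role in TGF-β signaling, read 8.86 to 9.31 and differed by -0.14 to 0.08. Klf13, a regulator of chemokine expression in lymphocytes, read 9.03 to 9.54 and differed by -0.10 to 0.07, and Klf16 read 8.90 to 9.48 and differed by -0.04 to 0.02. Without Klf4, the 7 genes other than Klf6 and Klf10 had 95% intervals that stayed within 0.49 of 0 in every line, so a 1.5-fold change of the measured value lies outside all of them.

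**Figure D4:**
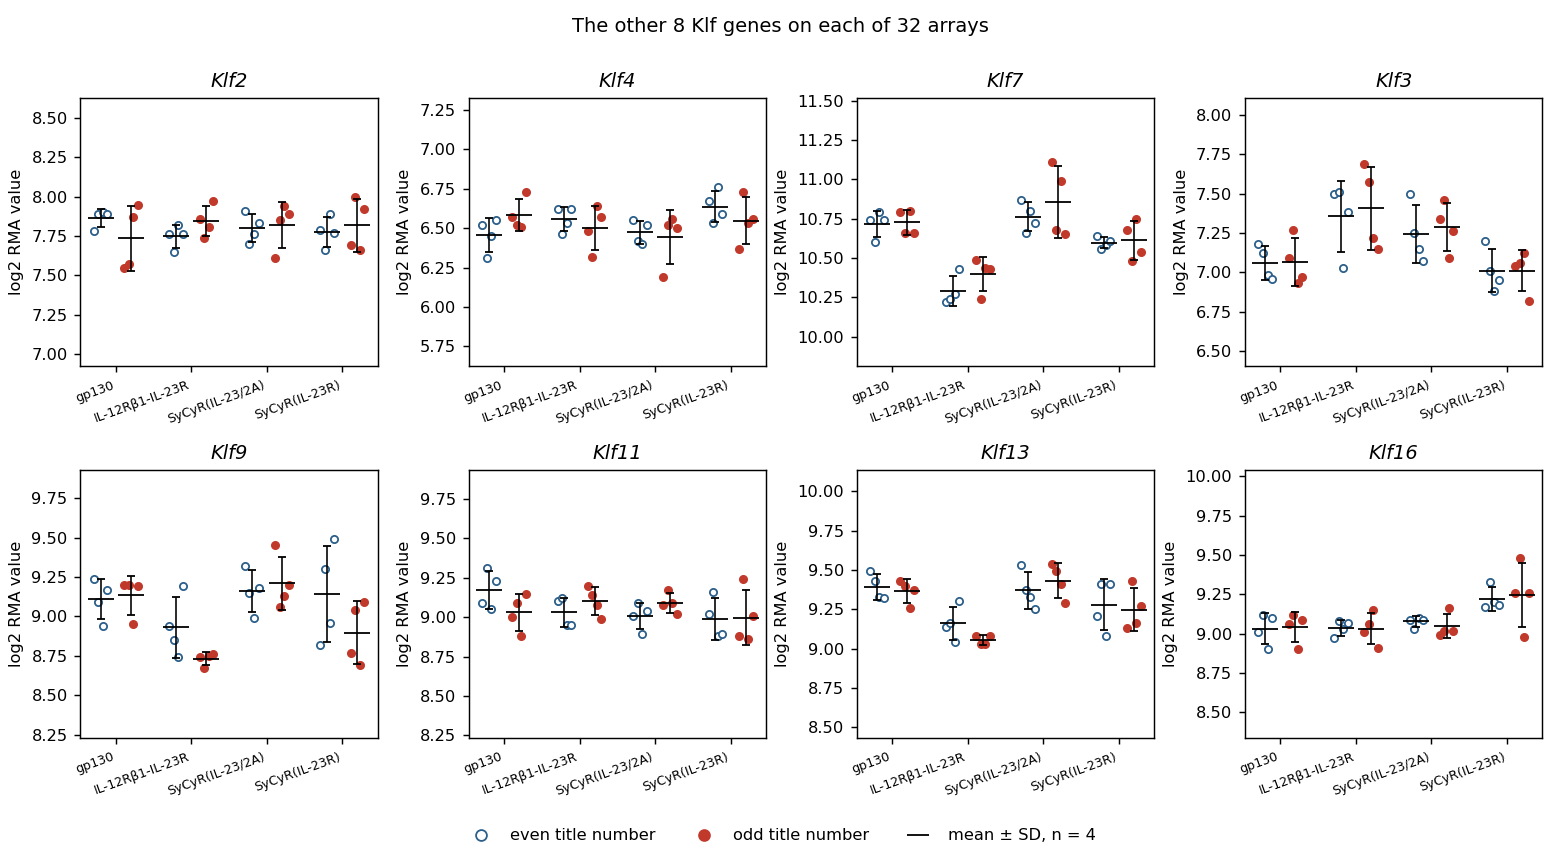
Log2 RMA values of the 8 Klf genes other than Klf6 and Klf10 on each array, by line, with even title numbers open and odd title numbers filled and bars for the mean ± SD of 4 arrays; each panel spans the same height of log2 values. Odd and even arrays overlap in every line, and Klf7 in the natural receptor line (10.22 to 10.49) lies below Ba/F3-gp130 (10.60 to 10.80).

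Levels on even arrays were compared between each receptor line and Ba/F3-gp130. Klf7 had the lowest adjusted p, in the natural receptor line, where the even arrays read 10.22, 10.24, 10.27 and 10.43, against 10.74, 10.60, 10.79 and 10.74 in Ba/F3-gp130. The groups did not overlap, and the difference of -0.43 ± 0.08 had an adjusted p of 4.4e-04 in limma but was under 1.5-fold, so it was not called. Without the fold limit 10.0% of all probe sets passed in this comparison. The odd arrays lay the same way, at 10.49, 10.24, 10.44 and 10.43 against 10.79, 10.66, 10.80 and 10.66. In the heterodimer line and the homomer line the even arrays read 10.66 to 10.87 and 10.56 to 10.64, with differences of 0.05 (-0.12 to 0.22) and -0.12 (-0.29 to 0.05) from Ba/F3-gp130.

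Klf10 was lower on the even arrays of the receptor lines than on those of Ba/F3-gp130, by -0.36 (-0.60 to -0.11) in the natural receptor line, -0.24 (-0.48 to 0.01) in the heterodimer line and -0.28 (-0.52 to -0.03) in the homomer line. None passed the adjusted threshold in limma (adjusted p = 0.054, 0.54 and 0.21), all were under 1.5-fold, and the comparisons share the Ba/F3-gp130 arrays. With the title number as a fixed replicate block the adjusted p was 3.4e-04 in the natural receptor line and 0.0074 in the homomer line, with the differences still under 1.5-fold. The mean levels of Klf10 in the natural receptor line were 9.33 on even and 10.12 on odd arrays, on either side of the Ba/F3-gp130 means of 9.68 and 9.72. The same held in the heterodimer line, at 9.45 and 10.14. In the homomer line the means were 9.41 and 9.76, the odd mean close to that of Ba/F3-gp130. Klf13 read 9.14, 9.16, 9.04 and 9.30 on even arrays of the natural receptor line and 9.49, 9.43, 9.33 and 9.32 on those of Ba/F3-gp130. All 4 arrays lay lower, by -0.23 (-0.39 to -0.07) on average, with an adjusted p of 0.053 in limma and 0.026 under the block. Klf16 read 9.17, 9.33, 9.20 and 9.18 on even arrays of the homomer line and 9.01, 9.12, 8.90 and 9.10 on those of Ba/F3-gp130, also without overlap. That difference was 0.19 (0.04 to 0.34), with an adjusted p of 0.15 in limma. Over the alternative fits the adjusted p of Klf16 ran from 0.024 to 0.4 in limma, always under 1.5-fold. Klf3 was higher by 0.29 (0.05 to 0.53) on even arrays of the natural receptor line, at values close to the median of all probe sets (adjusted p = 0.13 in limma, 0.0091 under the block).

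In the even-array comparisons 0 of the 10 genes were called, against 2.49% of all probe sets in the natural receptor line, 0.337% in the heterodimer line and 1.40% in the homomer line. At an unadjusted p under 0.05 there were 4, 0 and 4 members, against 19.5% and 9.62% of all in the first and second and 3975 of 23410 probe sets in the third. Values without overlap were seen for 3 members in the natural receptor line (Klf7, Klf10 and Klf13, all lower, against 7.77% of all lower) and for 1 in the homomer line (Klf16, higher, against 5.71% higher). Over the 10 genes the median differences were -0.13, 0.03 and -0.07, beside -0.01, -0.00 and 0.00 for all probe sets. Myeloid markers moved with the lines: the mean of 9 granulocyte and macrophage markers was 6.86 to 7.20 in Ba/F3-gp130, 6.49 to 6.74 in the natural receptor line, 6.97 to 7.34 in the heterodimer line and 7.12 to 7.65 in the homomer line. Of these markers 3, 2, 4 and 5 lay above 7.04 in the 4 lines. The members did not move as 1 group: on even arrays Mpo, myeloperoxidase, fell by 2.45 in the natural receptor line and fell by 1.92 in the homomer line, and Ctsg, cathepsin G, fell by 1.35 in the former, to a mean below 7.04. In the homomer line Itgam, an integrin chain, reached 7.99 and Lyz2, lysozyme, 7.27, from Ba/F3-gp130 means below 7.04. Ctsg was higher there by 1.41, though its values overlapped those of Ba/F3-gp130. Thus 2 of 9 were called lower in the natural receptor line, against 1.11% of all probe sets. In the homomer line 3 were called higher, against 0.760%, and 1 lower, against 0.636%. The mean of 8 mast cell and basophil markers was 7.24 to 7.52 in Ba/F3-gp130, 6.87 to 7.22 in the natural receptor line, 7.11 to 7.51 in the heterodimer line and 7.30 to 7.49 in the homomer line, with 3, 2, 2 and 2 of them above 7.04. On even arrays of the homomer line 1 of these 8, Fcer1a, was called higher, against 0.760% of all probe sets. Its mean was 9.48 there and 8.07 in Ba/F3-gp130. None of the 8 was called lower there, and none was called in the natural receptor line or the heterodimer line, against 2.49% and 0.337% of all. The part of either marker group in the Klf levels was not tested.

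**Figure D5:**
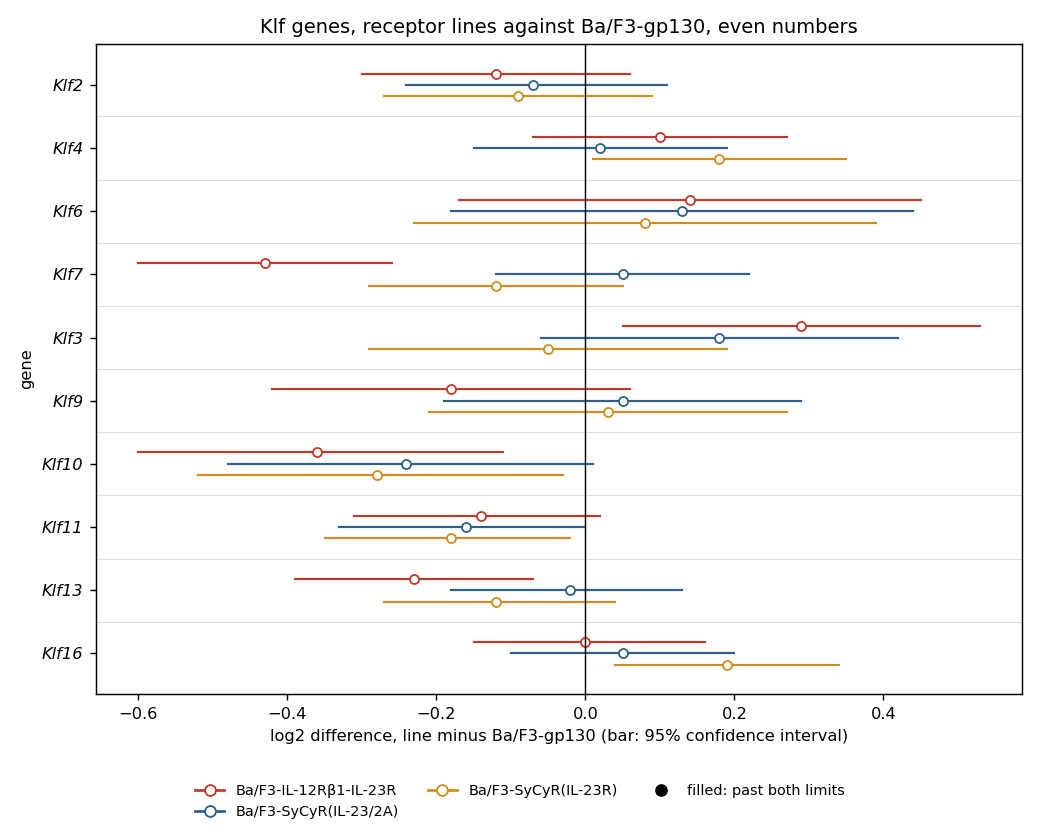
Log2 difference of each receptor line minus Ba/F3-gp130 on even-numbered arrays for the 10 Klf genes, from limma, with 95% confidence intervals as bars; no point is filled because none passed both limits. Klf7 in the natural receptor line (-0.43) has the interval farthest from 0, and Klf10 lies at -0.36, -0.24 and -0.28 in the 3 lines.

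How the Klf genes moved relative to each other was described over the 24 arrays of the receptor lines, after subtraction of the mean of each line. These arrays share their numbers, so the correlations carry the odd and even split and the level of each number and have no p-value. Klf6 ran against Klf7 (Pearson r = -0.70) and against Klf10 (-0.54), Klf9 ran with Klf13 (0.74) and Klf2 with Klf4 (0.67), of which Klf4 lay below 7.04. Of 12227 genes with a mean above 7.04, the 3 most like Klf10 in this measure were Gadd45b, a growth arrest and stress gene, Ffar2, a receptor for short-chain fatty acids, and Lfng, a glycosyltransferase that modifies Notch, each with r = 0.95. On odd against even arrays Gadd45b was higher by 1.42, 1.09 and 0.65 in the natural receptor line, the heterodimer line and the homomer line, beside 0.79, 0.69 and 0.35 for Klf10. These genes were picked on the same arrays, so the likeness of the values follows from the choice.

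The other 7 Klf genes on the array were read for context. None was called in any of the 12 comparisons, against 0% to 2.49% of all probe sets. Klf1, the erythroid factor, read 8.61 to 9.78 and was lower on odd arrays by -0.39, -0.29 and -0.20 in the 3 receptor lines and by -0.02 in Ba/F3-gp130 (adjusted p = 0.18, 0.76, 1 and 1 in limma), and all 12 consecutive pairs of the receptor lines lay below 0. Klf1 is shown because of these values. Klf8 was higher by 0.34 on even arrays of the homomer line (adjusted p = 0.002 in limma), under 1.5-fold. Of 8 related Sp genes, which bind the same GC boxes, none was called, against the same shares of all probe sets. Sp4 was higher by 0.55 on even arrays of the natural receptor line (adjusted p = 0.0012 in limma), also under 1.5-fold. None of 12 corepressors and coactivators of Klf factors and none of 8 genes of the ERK5, MEF2 and FoxO inputs to Klf2 and Klf4 was called between odd and even arrays of any line or between lines on even arrays. Of all probe sets 0% to 2.49% were called in these comparisons. Without the fold limit, 2 of the 12 and 2 of the 8 passed on even arrays of the natural receptor line, against 10.0% of all. On those of the homomer line 1 of the 12 passed, against 6.19%.

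TGF-β signaling is a known input to Klf10 and Klf11. Of its 9 genes measured, 1 fell in the natural receptor line and 1 rose in the heterodimer line between odd and even arrays, with medians of -0.01 and -0.04, against 0.132% of all probe sets called lower in the former and 0.470% called higher in the latter. The gene that fell was Tgif1, a repressor of Smad-driven transcription, by 0.63 (adjusted p = 4.8e-05 in limma), while its difference from the odd minus even value of Ba/F3-gp130 was -0.56 and under 1.5-fold. The gene that rose was Smad7, the feedback inhibitor of the pathway, by 0.59 (adjusted p = 0.0022 in limma), just past the fold limit. For the difference of the heterodimer line from Ba/F3-gp130, 0 of the 9 genes were called, Smad7 included, against 0.320% of all probe sets. Smad7 was not called in the natural receptor line. Of 6 genes of the glucocorticoid receptor and its targets, an input to Klf9, none was called in the 12 comparisons, against 0% to 2.49% of all probe sets. Tsc22d3, a glucocorticoid-induced gene, differed by -0.57 in the natural receptor line and -0.54 in the heterodimer line (adjusted p = 2.7e-05 and 1.5e-04 in limma), under 1.5-fold and at means between 6.31 and 7.02.

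Of 12 measured genes known as Klf targets, 2 were higher on odd arrays in the natural receptor line, 1 in the heterodimer line and 1 in the homomer line, none was lower, and the medians were 0.11, 0.08 and -0.01. Of all probe sets 0.859%, 0.470% and 0.137% were called higher. Il10, which encodes an anti-inflammatory cytokine, was called in all 3 receptor lines, with odd means of 10.52, 8.51 and 6.75 and even means of 5.47, 5.35 and 5.48. The even means lay below 7.04, as did the odd mean of the homomer line, so Il10 was not shown to be above background there and the sizes of these differences are not given. Myc, a growth regulator repressed by several Klf factors in other cells, rose by 0.78 in the natural receptor line (adjusted p = 1.9e-06 in limma). Cdkn1b, the cell cycle inhibitor p27, was lower there by -0.47 (adjusted p = 1.7e-05 in limma), under 1.5-fold. On even arrays 2 of the 12 were called lower in the natural receptor line, against 1.11% of all probe sets, and 1 in the homomer line, against 0.636%, with none higher. Lgals3, which encodes galectin-3, fell by 2.91 in the natural receptor line and by 1.47 in the homomer line relative to Ba/F3-gp130, and Nos3, endothelial nitric oxide synthase and a Klf2 target in endothelium, fell by 1.23 in the natural receptor line. Klf2 itself differed by -0.12 (-0.30 to 0.06) in that comparison.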

How the data were processed

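RNA of 32 Ba/F3 samples was hybridised to Affymetrix mouse Gene ST arrays. Per the submitters' processing notes and the methods, the authors processed the arrays with RMA in Affymetrix Expression Console with sketch-quantile normalization (the sources used here give no version). The deposited values are log2 expression values. Lines and numbers came from the sample titles. Probe sets were named from the platform annotation, with 1 symbol for 21789, several for 1621 and none for 12146.

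The 23410 probe sets with a symbol were fitted in limma 3.58.1 (R 4.3.3, lmFit and eBayes) with the 8 groups of line and odd or even number over all 32 arrays. The 12 contrasts were odd minus even in each line, 5 differences of these between lines, and the even arrays of each receptor line minus Ba/F3-gp130. Differences were called at an adjusted p (Benjamini-Hochberg) under 0.05 with a size of 1.5-fold or more. The methods used 1.5-fold with p of at most 0.01 and name no test. The 10 Klf genes, the gene lists and the odd and even split were chosen with earlier results of these data known, so p-values of that split are not independent evidence for it. Beside the Klf genes, genes of the lists on TGF-β, glucocorticoid and Klf targets were named where called in at least 1 of the 12 contrasts, and the 3 genes most correlated with a Klf gene called in at least 2 receptor lines; Klf1, Klf8, Sp4, Socs3, Tsc22d3, Cdkn1b and the markers were named after their values were seen.

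Whether numbers pair the arrays was checked on the residuals from the 8 group means. All same-numbered arrays of different lines correlated above 0.1 (lowest 0.114), as did consecutive numbers within a line (0.251 to 0.814), so the numbers pair the arrays by the values, though no label says so. The reported fit, its calls and its counts have no block, and blocked fits are given where they change a call. Promoter windows were searched and figures drawn with Python 3.11.15, pandas 2.3.3 and matplotlib 3.10.9. Precision is limited by the 4 arrays of a group.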

Additional observations from a re-analysis of the deposited data

Results flagged for a closer look

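In 6 of the 80 groups of 4 arrays, 1 array lay apart from the other 3. Its gap to the nearest neighbour, as a share of the range of the group, was above Dixon's 95% value. Chance alone would mark about 1 in 20 groups. Because the share is relative to the range, a small log2 gap is also marked where the other 3 arrays lie close together. The share of the range was 0.947 for Klf2 on even arrays of Ba/F3-gp130, where array 14 read 7.78 and the others 7.89 to 7.90. It was 0.860 for Klf6 on odd arrays of the natural receptor line, where array 15 read 9.93 and the others 9.35 to 9.43. For Klf9 on odd arrays of Ba/F3-gp130 it was 0.949, with array 17 at 8.95 and the others at 9.19 to 9.20. Klf16 had 3 such groups: even arrays of the heterodimer line at 0.896 (array 16 at 9.03, others 9.09 to 9.10), odd arrays of the same line at 0.839 (array 17 at 9.16, others 8.99 to 9.02) and even arrays of the homomer line at 0.830 (array 16 at 9.33, others 9.17 to 9.20).

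The odd minus even difference of Klf10 differed between the natural receptor line and Ba/F3-gp130 by 0.76 (adjusted p = 0.012 in limma). It was above 0 in 4 of 4 consecutive pairs of the natural receptor line, at 0.68 to 0.92, and between -0.03 and 0.14 in Ba/F3-gp130.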

How the results depend on the processing

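Of the 89 values of called Klf genes under the alternatives, 87 kept direction and call. The count of Klf genes called in the natural receptor line was 2 and ranged from 1 to 2 when each array was left out in turn, with Klf6 lost without odd array 13 (-0.58). For the difference from Ba/F3-gp130 it was 1 in the reported fit and 0 with each array centred on its median (Klf10, 0.69). With the unadjusted limits of the methods and with each of 4 replicate block fits (title number fixed or random, consecutive numbers fixed or random) it was 2, Klf6 and Klf10, and for the heterodimer line against Ba/F3-gp130 it went from 0 to 1, Klf10. Under the block Klf6 against Ba/F3-gp130 had an adjusted p of 5.0e-05 to 0.024 in limma and Klf10 in the heterodimer line 1.7e-04 to 0.012. The block changed no other call, and title number as a fixed term could not be fitted for odd minus even within a line. Without the fold limit the count on even arrays of the natural receptor line went from 0 to 1, Klf7. Leaving out arrays 17 and 18, or arrays 15 and 16 (added after the data were seen, as was the consecutive-number random block), changed no call. No called value changed sign, and 182 values of uncalled genes did, none larger than 0.08 in the reported fit. Klf4 was left out by the filter on dim probe sets. Over all probe sets, counts of calls moved by more than 1.5 times in several comparisons: 24 between heterodimer and natural receptor lines (11 to 75 over the alternatives), 18 between homomer and heterodimer lines (6 to 37), 22 between the homomer line and Ba/F3-gp130 (37 with unadjusted limits) and 75 between the heterodimer line and Ba/F3-gp130 (113 to 115 with unadjusted limits and fixed blocks). Without the fold limit, odd against even arrays gave 730 instead of 232 in the natural receptor line and 223 instead of 114 in the heterodimer line, and even arrays 2341 instead of 584, 225 instead of 79 and 1449 instead of 327 in the 3 receptor lines. With probe sets without a symbol added, 232 became 357, 79 became 165 and 327 became 1240. Ba/F3-gp130 went from 0 to 1 without array 18.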
